A study of Rattus norvegicus with 21 samples.

Results

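The interaction between added Klf2 and phenylephrine (PE) was examined in neonatal rat ventricular myocytes (NRVMs), heart muscle cells cultured from newborn rats. For each gene it is the response to PE in cells given Klf2 minus the response to PE in cells given the control virus, on the log2 scale. It was described for the 9525 genes with a mean of 10 counts per 1000000 (CPM) or more, out of 30560 gene IDs in the overexpression table, of which 16153 had counts enough to be tested. The 4 groups, with 3 libraries each, were Ad-Klf2-PE (Klf2 adenovirus with PE), Ad-GFP-PE (green fluorescent protein adenovirus with PE), Ad-Klf2 and Ad-GFP. PE was given at 100 µM for 36 h. The treatment field of the labels names PE for every sample, also those of Ad-Klf2 and Ad-GFP, so groups with and without PE follow the titles, and the batch field (0 or 36 h) splits them the same way. Virus was given for the last 24 h, after 12 h with or without PE, so PE came before added Klf2. All 4 groups carried a virus. These are 12 of the 21 libraries of the series. A separate knockdown table, with 2 libraries each of siKlf2-PE, siNeg-PE, siKlf2 and siNeg, was used for comparison; there the siRNA came 12 h before PE. If that field also marks a batch, batch and PE cannot be told apart. The sources used here do not name the promoter that drives Klf2.

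KLF2 is a zinc finger transcription factor that binds GC-rich and CACCC-type elements and is best known from endothelium, where laminar flow induces it and it restrains inflammatory and clotting genes. PE activates α1-adrenergic receptors, which act through Gq, phospholipase C, protein kinase C and calcium. In cultured cardiomyocytes it is a standard inducer of hypertrophic growth, with higher natriuretic peptide and fetal sarcomere transcripts. Genes are listed by Ensembl ID, and 0 of the IDs matched a symbol in the reference used here. Genes are therefore described by how they behaved, Klf2 itself and cell type markers were not checked, and no gene function is assigned. In bulk RNA, fewer cells of a type and less RNA per cell cannot be told apart.

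Total counts were 34361777 to 76138723 in Ad-Klf2-PE, 33155447 to 39723124 in Ad-GFP-PE, 32693762 to 47016968 in Ad-Klf2 and 53623078 to 60994028 in Ad-GFP. The 3 Ad-GFP libraries stood apart from the others. Their median within-group SD was 0.114 in log2 CPM over the 9525 genes, against 0.0619 in Ad-Klf2-PE, 0.0809 in Ad-GFP-PE and 0.0836 in Ad-Klf2. They also received the lowest quality weights in limma voom, 0.348 to 0.437, against 0.863 to 2.14 in the other 9 libraries. In the Ad-GFP libraries 539 to 776 genes had counts of 1 to 5, against 1728 to 2022 in the other 9. Ad-Klf2-PE replicate 1, with the highest total, had 1983. The cause was not tested. Every interaction value uses the Ad-GFP libraries, so counts that do not are given beside the results. Replicates differed by more than counting noise, with a chi-square of at least 6.43 per degree of freedom in every pair. Nothing in the labels ties replicates to separate isolations of cells. The spread behind each p-value is therefore that between libraries and may be technical.

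The response to PE differed between Ad-Klf2 and Ad-GFP cells for most of these genes. In edgeR's quasi-likelihood test, at an adjusted p under 0.05, the response was higher in Ad-Klf2 cells for 3110 genes (32.7%) and lower for 3173 (33.3%), together 66% of the 9525. Over all 16153 genes tested the share was 49.1%. With a fold of at least 1.5, 2174 were higher (22.8%) and 1872 lower (19.7%), and 409 and 217 reached a fold of 4. Higher responses made up 49.5% of the calls with no minimum fold and 65.3% of those at a fold of 4. The mean of 10 CPM admitted 178 genes through Ad-Klf2-PE alone, and without them 292 genes were higher and 217 lower at a fold of 4 (57.4% higher). The median standard error of the interaction was 0.122. More genes were called between PE and no PE in cells given Klf2, where the level of Klf2 with PE was not checked. By a fold of at least 1.5, 2260 genes (23.7%) were higher and 1761 (18.5%) lower with PE in Ad-Klf2 cells, against 655 (6.88%) and 590 (6.19%) in Ad-GFP cells. These splits depend on the scaling. With library totals alone, 40.8% of the calls in Ad-Klf2 cells and 32.3% in Ad-GFP cells were higher, against 56.2% and 52.6% with TMM factors. The median gene moved by -0.20 and -0.14 on the log2 scale in the PE responses under that scaling, and by -0.06 in the interaction.

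The 4046 genes with an interaction of at least 1.5-fold (42.5%) were sorted by their response in each arm, where a response counts if called with a fold of at least 1.5. A response was blocked if counted in Ad-GFP cells but not in Ad-Klf2 cells, reversed if counted in opposite directions, and gained if counted in Ad-Klf2 cells only. Gained responses made up most of the calls, with 1569 gained rises (16.5% of the 9525 genes) and 1078 gained falls (11.3%). There were 197 blocked rises and 112 blocked falls. Reversal was found for 124 genes that fell with PE in Ad-Klf2 cells and rose in Ad-GFP cells, and for 158 genes that rose in Ad-Klf2 cells and fell in Ad-GFP cells. Responses of the same direction were smaller in Ad-Klf2 cells for 23 rises and 4 falls, and larger for 93 rises and 100 falls. The balance of rises and falls depended on the scaling. Under library totals alone there were 130 blocked rises, 175 blocked falls, 1247 gained rises and 1425 gained falls. Gained falls then outnumbered gained rises, and interactions of 1.5-fold were higher for 2006 genes and lower for 2100. The remaining 588 genes had a called interaction and no response counted in either arm; 1 of them had a response over 1.5-fold that was not called. The nearest genes on either side of the 10 CPM limit had means of 10.003 and 9.9998 CPM, with interactions of 0.15 and 0.03.

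**Figure D1:**
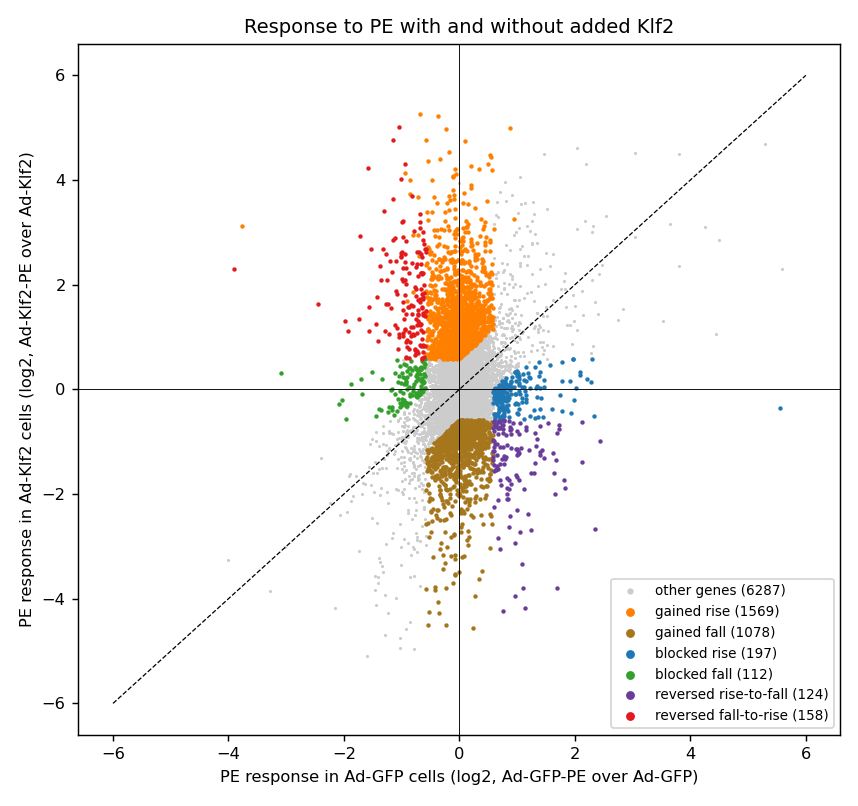
Each point is 1 of the 9525 genes, with its log2 response to PE in Ad-GFP cells on the horizontal axis and in Ad-Klf2 cells on the vertical axis. Genes near the dashed line responded alike, and the gained classes (1569 and 1078 genes) spread vertically around a response near 0 in Ad-GFP cells; the straight class borders come from the 1.5-fold limits.

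Of the 655 genes raised in Ad-GFP cells, 30.1% were blocked, 18.9% were reversed and 3.51% rose less in Ad-Klf2 cells. A larger rise was found for 14.2%, and 33.3% had no called interaction of 1.5-fold, including 127 genes counted as raised in both arms. Of the 590 genes lowered in Ad-GFP cells, 19% were blocked, 26.8% were reversed and 16.9% fell further. Because these genes were chosen by their response in Ad-GFP libraries that also enter the interaction, part of the smaller response is built into the choice. Genes chosen in siNeg cells, the control arm of the knockdown table, share no library with the interaction. Of 539 genes raised by PE in siNeg cells by at least 1.5-fold, the interaction was lower for 273 (50.6%, background 19.7%, the share of all genes described) and higher for 77 (14.3%, background 22.8%). Their median response was 0.24 in Ad-Klf2 cells and 0.82 in Ad-GFP cells. Of 512 genes lowered in siNeg cells, the interaction was higher for 217 (42.4%, background 22.8%) and lower for 118 (23%, background 19.7%), with median responses of -0.48 in Ad-Klf2 cells and -0.75 in Ad-GFP cells.

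The 197 blocked rises had a median response to PE of -0.06 in Ad-Klf2 cells (quartiles -0.26 and 0.08) and of 0.80 in Ad-GFP cells (quartiles 0.69 and 1.10). They were not uniformly flat, since a change under 1.5-fold was called upward for 30 of them and downward for 60 in Ad-Klf2 cells. Such small changes were called upward for 16.4% and downward for 18.4% of all 9525 genes. The interactions of the 197 blocked rises ran from -5.91 to -0.59, and 7 exceeded a fold of 4 (background 6.57%). Together they took 3.51%, 3.58% and 3.59% of all counts in the Ad-Klf2-PE libraries and 6.97%, 6.98% and 7.02% in the Ad-GFP-PE libraries. Without PE they took 4.18%, 4.18% and 4.29% in Ad-Klf2 and 3.62%, 3.67% and 3.69% in Ad-GFP. The share in Ad-Klf2-PE lay just below that in Ad-GFP. These shares describe the libraries that defined the class.

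The blocked rises differed in which of the parallel comparisons, with or without PE, carried the difference. Of the 197, 119 were lower in Ad-Klf2-PE than in Ad-GFP-PE by at least 1.5-fold (background 22.1%), and 43 were higher in Ad-Klf2 than in Ad-GFP without PE (background 10.4%). Both held for 8 genes, and neither for 43. The higher level without PE alone was found for 35 genes. The 3 largest interactions among blocked rises were -5.91, -2.85 and -2.37 (SE 0.224, 0.201 and 0.107).

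The 112 blocked falls were the counterpart, with a median response of 0.10 in Ad-Klf2 cells (quartiles -0.13 and 0.30) and -0.87 in Ad-GFP cells (quartiles -1.03 and -0.69). Of these, 73 were higher in Ad-Klf2-PE than in Ad-GFP-PE (background 26.5%) and 20 were lower in Ad-Klf2 than in Ad-GFP without PE (background 4.83%). The largest interaction belonged to ENSRNOG00000019120. It lay at 171, 182 and 142 CPM in Ad-Klf2-PE and at 5.17, 4.67 and 4.61 CPM in Ad-GFP-PE. Without PE it lay at 112, 141 and 144 CPM in Ad-Klf2 and at 41.2, 40.3 and 40.9 CPM in Ad-GFP. All Ad-Klf2 libraries, with or without PE, lay above all Ad-GFP libraries, and PE lowered the gene in the Ad-GFP arm, where the groups did not overlap. Its log2 response was 0.32 (SE 0.0906) in Ad-Klf2 cells and -3.08 (SE 0.116) in Ad-GFP cells, a difference of 3.40 (SE 0.148, edgeR adjusted p = 1.3e-12). In the knockdown table it lay at 9.47 and 9.11 CPM in siKlf2-PE, 9.98 and 8.06 CPM in siNeg-PE, 59.3 and 60.4 CPM in siKlf2 and 38.7 and 38 CPM in siNeg. There PE lowered it in siNeg cells as well (log2 response -2.09, SE 0.0755, edgeR adjusted p = 2.59e-09). Without PE, knockdown raised it (log2 difference 0.64, SE 0.07, edgeR adjusted p = 1.32e-05), the same direction as added Klf2. With PE no difference was called (0.04, SE 0.0787, edgeR adjusted p = 0.703). The interaction of knockdown with PE was -0.6 (SE 0.105, edgeR adjusted p = 0.00305).

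Of the 124 genes whose rise turned to a fall, 120 were lower in Ad-Klf2-PE than in Ad-GFP-PE by at least 1.5-fold (background 22.1%). The sorting used these same libraries. Without PE, 21 of them were lower (background 4.83%) and 18 higher (background 10.4%) in Ad-Klf2 than in Ad-GFP. No change was called for 85 (68.5%, background 84.8%). Their median response was -1.21 in Ad-Klf2 cells and 0.86 in Ad-GFP cells. Interactions over 4-fold were found for 77 of the 124 (background 6.57%). Counted responses in opposite directions add up in the interaction, so large values are partly built into this class. In 113 of the 124 all 3 Ad-Klf2-PE libraries lay below the other 9 libraries, also below Ad-GFP cells never given PE. That order was seen for 30.8% of all 9525 genes. The class took 0.674% to 0.728% of counts in Ad-Klf2-PE, 4.02% to 4.12% in Ad-GFP-PE, 1.9% to 1.95% in Ad-Klf2 and 1.88% to 1.92% in Ad-GFP.

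ENSRNOG00000018598 had the third largest interaction of this class and the highest level of the leading 3. It lay at 73.8, 62.7 and 79.2 CPM in Ad-Klf2-PE and at 4219, 4370.1 and 4555 CPM in Ad-GFP-PE. Without PE it lay at 465, 433 and 476 CPM in Ad-Klf2 and at 875, 787 and 915 CPM in Ad-GFP. The 4 groups did not overlap, with the highest level in Ad-GFP-PE and the lowest in Ad-Klf2-PE. PE changed it by -2.67 (SE 0.0749) in Ad-Klf2 cells and by 2.35 (SE 0.0726) in Ad-GFP cells, an interaction of -5.02 (SE 0.104, edgeR adjusted p = 2.84e-16). In the knockdown table the same ID lay at 6938 and 6951 CPM in siKlf2-PE, 4137 and 4288 CPM in siNeg-PE, 1759 and 1827 CPM in siKlf2 and 542 and 561 CPM in siNeg. There the level was higher after knockdown both with PE (log2 difference 0.72, SE 0.0365, edgeR adjusted p = 2.71e-08) and without it (1.70, SE 0.0373, edgeR adjusted p = 7.25e-11). Its response to PE was 1.95 (SE 0.0376) in siKlf2 cells and 2.93 (SE 0.0391) in siNeg cells. The interaction of knockdown with PE was therefore -0.98 (SE 0.0515, edgeR adjusted p = 1.85e-06), of the same sign as that of added Klf2. The 2 tables were normalized separately, so levels are not compared between them.

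The 158 genes whose fall turned to a rise had a median response of 1.65 in Ad-Klf2 cells and -0.84 in Ad-GFP cells, with a median interaction of 2.63. Of these, 157 were higher in Ad-Klf2-PE than in Ad-GFP-PE (background 26.5%), and 67 were also higher in Ad-Klf2 than in Ad-GFP without PE (background 10.4%). In 153 all Ad-Klf2-PE libraries lay above the other 9, an order seen for 33.9% of all 9525 genes. For 27 of them the mean was under 10 CPM in each of the other groups, so they entered only through their level in Ad-Klf2-PE and had to differ; without them the medians were 1.51 in Ad-Klf2 cells and -0.83 in Ad-GFP cells. The class took 2.67% to 2.75% of counts in Ad-Klf2-PE, 0.334% to 0.351% in Ad-GFP-PE, 0.841% to 0.904% in Ad-Klf2 and 0.63% to 0.652% in Ad-GFP.

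ENSRNOG00000000463 had the third largest interaction of this class and the highest level of the leading 3. It reached 2029, 1871 and 1926 CPM in Ad-Klf2-PE, against 1.04, 1.41 and 1.09 CPM in Ad-GFP-PE. Without PE it lay at 68.6, 61.5 and 85.2 CPM in Ad-Klf2 and at 3.78, 3.25 and 0.776 CPM in Ad-GFP. Both Klf2 groups lay above both GFP groups, and the GFP groups overlapped. The interaction was 5.91 (SE 0.424, edgeR adjusted p = 1.23e-09), from a response of 4.76 (SE 0.205) in Ad-Klf2 cells. The response in Ad-GFP cells was -1.15 (SE 0.41, edgeR adjusted p = 0.0371), and 1 Ad-GFP library lay below all 3 PE-treated ones. That fall was not counted with limma voom or without Ad-GFP replicate 1 or 2 or any one Ad-GFP-PE replicate, and the gene then counted as a gained rise. In the knockdown table, where its level was under 3 CPM in every library, it was lower in siKlf2-PE than in siNeg-PE (log2 difference -1.12, SE 0.14, edgeR adjusted p = 3.84e-05). It was also lower in siKlf2 than in siNeg without PE (-1.26, SE 0.129, edgeR adjusted p = 7.97e-06). No interaction of knockdown with PE was called (0.13, SE 0.191, edgeR adjusted p = 0.712).

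**Figure D2:**
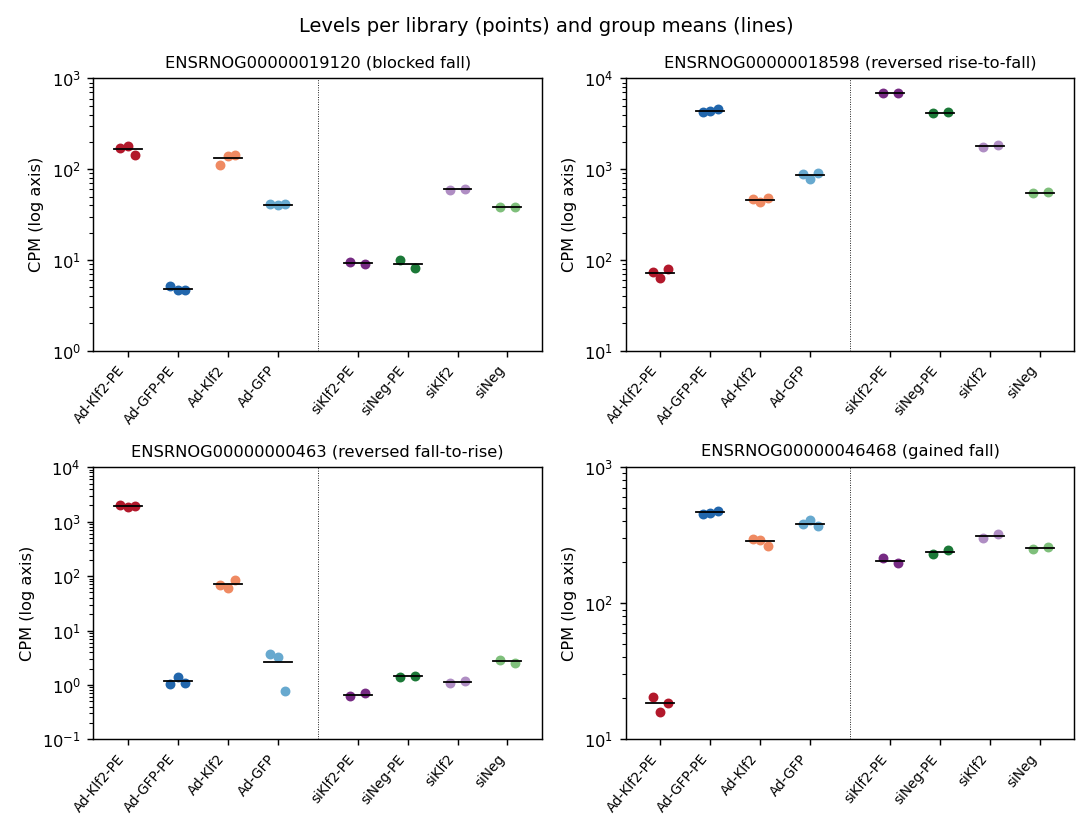
Levels of the 4 IDs followed here in CPM on a log axis, with a point per library and a line at each group mean; the overexpression groups are left of the dotted line and the knockdown groups right of it. ENSRNOG00000018598 and ENSRNOG00000046468 were lowest in Ad-Klf2-PE, at means of 71.9 and 18.4 CPM, and ENSRNOG00000000463 was highest there at 1942 CPM.

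Gained responses were counted only in cells given Klf2. The 1569 gained rises had a median response of 1.20 in Ad-Klf2 cells (quartiles 0.89 and 1.69) and -0.02 in Ad-GFP cells (quartiles -0.18 and 0.15). Of these, 1487 were higher in Ad-Klf2-PE than in Ad-GFP-PE by at least 1.5-fold (background 26.5%), and 411 were also higher in Ad-Klf2 than in Ad-GFP without PE (26.2% of the class, background 10.4%). For 1124 no change of 1.5-fold was called without PE (71.6%, background 84.8%). All Ad-Klf2-PE libraries lay above the other 9 libraries for 1548 (background 33.9%). The class was defined from these same libraries. It took 23.7% to 24% of all counts in Ad-Klf2-PE, 7.84% to 8.16% in Ad-GFP-PE, 10.8% to 11.2% in Ad-Klf2 and 8.41% to 8.59% in Ad-GFP. Of the class, 118 genes had a mean under 10 CPM in each other group and so entered through Ad-Klf2-PE alone; without them the medians were 1.15 in Ad-Klf2 cells and -0.02 in Ad-GFP cells. In all, 30 lay under 1 CPM on average in both GFP groups. The 3 gained rises with the largest fitted interactions each had 0 counts in at least 1 Ad-GFP library, so their fitted values depend on the prior count and are not given.

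The 1078 gained falls had a median response of -0.99 in Ad-Klf2 cells and 0.02 in Ad-GFP cells. In Ad-Klf2-PE 979 were lower than in Ad-GFP-PE (background 22.1%), and 136 were also lower in Ad-Klf2 than in Ad-GFP without PE (12.6%, background 4.83%). They took 4.28% to 4.37% of counts in Ad-Klf2-PE, 12.4% to 12.6% in Ad-GFP-PE, 11.4% to 11.8% in Ad-Klf2 and 13.2% to 13.9% in Ad-GFP. Among the 3 largest, ENSRNOG00000046468 lay at 20.5, 16 and 18.6 CPM in Ad-Klf2-PE and at 456, 464 and 475 CPM in Ad-GFP-PE. Without PE it lay at 299, 294 and 263 CPM in Ad-Klf2 and at 379.5, 408 and 368 CPM in Ad-GFP. The 3 Ad-Klf2-PE libraries lay far below the other 9, which ran from 263 to 475 CPM. The response was -3.95 (SE 0.0795) in Ad-Klf2 cells and 0.27 (SE 0.068) in Ad-GFP cells, an interaction of -4.22 (SE 0.103, edgeR adjusted p = 8.87e-16). In the knockdown table its 8 libraries lay between 197 and 322 CPM. There the response to PE was -0.59 (SE 0.0475) in siKlf2 cells and -0.09 (SE 0.0473) in siNeg cells. The interaction of knockdown with PE was -0.5 (SE 0.067, edgeR adjusted p = 0.000571).

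PE moved 505 genes the same way in both arms by at least 1.5-fold. For 285 of them no interaction of 1.5-fold was called, and for the other 220 the response was larger in Ad-Klf2 cells for 193 and smaller for 27. The 93 enlarged rises had median responses of 2.30 in Ad-Klf2 cells and 0.92 in Ad-GFP cells. Of these, 21 were under 10 CPM in each group but Ad-Klf2-PE and had to differ, and without them the medians were 2.11 in Ad-Klf2 cells and 0.89 in Ad-GFP cells. The 100 enlarged falls had medians of -2.30 in Ad-Klf2 cells and -0.83 in Ad-GFP cells. Without PE, 60 of these rises were higher in Ad-Klf2 than in Ad-GFP (background 10.4%) and 42 of the falls were lower (background 4.83%). In siNeg cells 44 of the 93 were raised (47.3%, background 5.66%) and 71 of the 100 lowered (71%, background 5.38%). The 23 reduced rises had median responses of 1.23 in Ad-Klf2 cells and 2.15 in Ad-GFP cells.

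**Figure D3:**
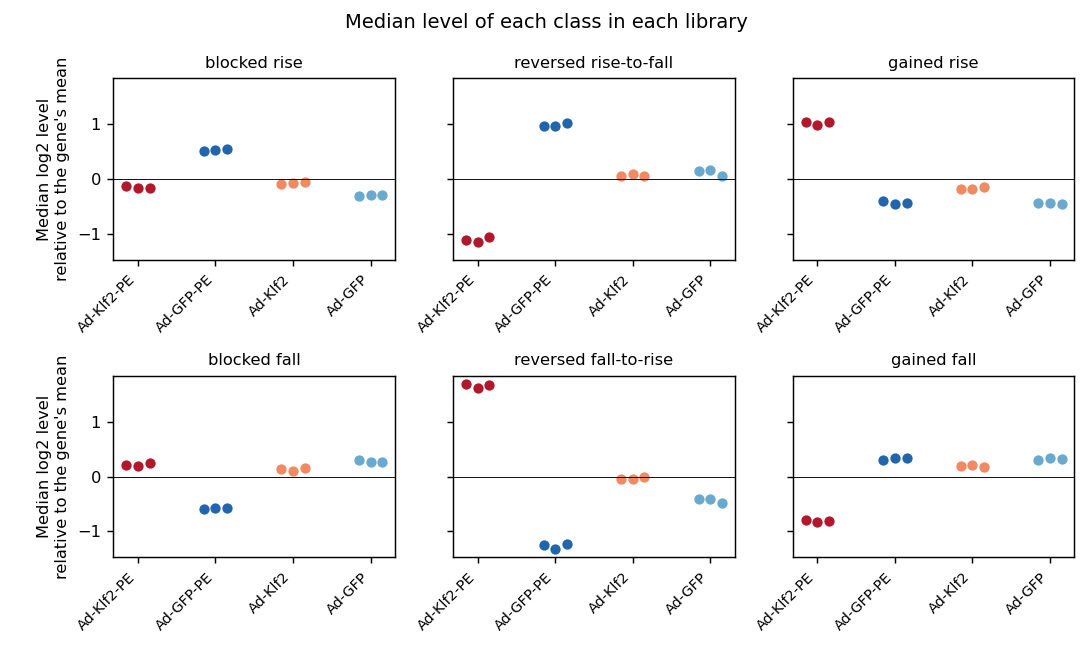
Median log2 level of each class in each library, relative to each gene's mean over the 12 libraries, with a pseudocount of 0.5 CPM. Gained rises lay at 0.99 to 1.04 in Ad-Klf2-PE and between -0.45 and -0.15 in the other libraries; reversed rise-to-fall genes lay at -1.15 to -1.06 in Ad-Klf2-PE and at 0.96 to 1.01 in Ad-GFP-PE. The classes were sorted by these same libraries, so the plot describes them.

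The contrast of Ad-Klf2-PE with Ad-GFP-PE does not use the Ad-GFP libraries that stood apart. It is 1 of the 2 differences that make up the interaction and shares all PE-treated libraries with it, so much of the overlap is built in. Of the 2174 genes with a higher response in Ad-Klf2 cells, 1963 (90.3%, background 26.5%) were also higher in Ad-Klf2-PE than in Ad-GFP-PE by at least 1.5-fold, and of the 1872 with a lower response 1541 (82.3%, background 22.1%) were lower. The share was 60.4% for blocked rises and 65.2% for blocked falls, against 96.8% and 99.4% for the reversed classes and 94.8% and 90.8% for the gained ones. When the response in siNeg cells was put in place of that in Ad-GFP cells and the Ad-GFP libraries were left out, with no test of the difference, 173 blocked rises, 101 blocked falls, 103 and 118 reversed genes, 1593 gained rises and 1242 gained falls were counted. Of the blocked rises, 110 were in both counts (55.8% of the 197 and 63.6% of the 173). Of the gained rises, 1357 were (86.5% of 1568 measured in both tables and 85.2% of 1593). Both counts used the same Ad-Klf2-PE and Ad-Klf2 libraries. No siNeg response was counted for 8471 of the 9522 genes measured in both tables, so much of the overlap of gained rises is built in.

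**Figure D4:**
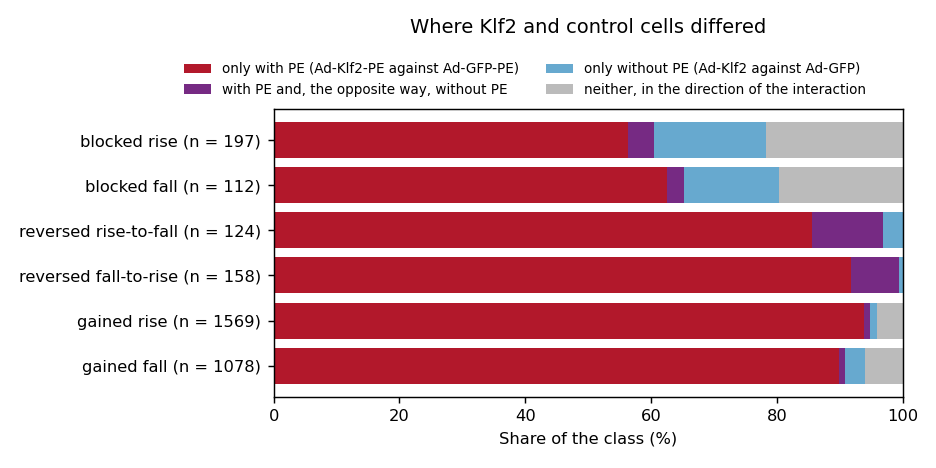
Share of each class in which Ad-Klf2 and Ad-GFP cells differed by at least 1.5-fold with PE in the direction of the interaction, without PE in the opposite direction, in both ways or in neither. Among the 6 classes drawn, the part without PE alone was largest in the blocked ones, 35 of 197 rises and 17 of 112 falls.

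Differences between cells given Klf2 and cells given GFP were called for more genes with PE than without it. With PE, 2520 of the 9525 genes were higher and 2105 lower in cells given Klf2, by at least 1.5-fold. Without PE the counts were 988 and 460. The contrasts with and without PE share no library. The level of Klf2 was not checked, so whether its amount differed with PE was not tested. Of the 988 genes raised by Klf2 without PE, 823 (83.3%, background 26.5%) were also raised with PE and 38 were lowered. Their median difference was 2.01 with PE and 1.07 without PE. The interaction was higher for 573 of them (58%, background 22.8%) and lower for 145 (14.7%, background 19.7%), in a contrast that shares the Ad-Klf2 and Ad-GFP libraries with the choice of these genes. Of the 460 genes lowered by Klf2 without PE, 341 (74.1%, background 22.1%) were also lowered with PE, with medians of -1.29 with PE and -0.75 without PE. Opposite calls with and without PE were found for 69 genes.

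The knockdown table gave a view of the same classes in libraries that took no part in sorting them. Of the 197 blocked rises, 124 were also raised by PE in siNeg cells by at least 1.5-fold (62.9%, background 5.66%), and none was lowered. In siKlf2 cells PE raised 129 of them (65.5%, background 5.7%). Of the 112 blocked falls, 75 were lowered in siNeg cells (67%, background 5.38%). For the reversed classes, 73 of 124 rises (58.9%) and 75 of 158 falls (47.5%) were called in the same direction in siNeg cells. When the classes were sorted with no minimum fold, which admits small responses, while siNeg calls kept theirs of 1.5-fold, these 4 shares were 21%, 23.5%, 20.5% and 22.5%. The gained classes had few responses there. Of 1568 gained rises measured in both tables, 33 were raised (2.1%) and 46 lowered by PE in siNeg cells, and of 1078 gained falls 24 were raised and 47 lowered (4.36%). The classes were chosen by having or lacking a response in Ad-GFP cells. The shares in siNeg cells therefore describe the response in control cells and not its block or gain. Of the other genes raised in Ad-GFP cells, 95.7% of reduced rises and 47.3% of enlarged rises were raised in siNeg cells.

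After Klf2 knockdown the calls among blocked and reversed rises were mostly higher. With PE, 72 of the 197 blocked rises were higher in siKlf2-PE than in siNeg-PE by at least 1.5-fold (36.5%, background 6.86%), and 5 were lower (2.54%, background 6.16%). Without PE, 56 were higher in siKlf2 than in siNeg (28.4%, background 6.15%) and 4 lower (2.03%, background 6.42%). With PE, 53 of the 124 reversed rises were higher (42.7%) and 6 lower. Of the 158 reversed falls, 42 were lower (26.6%) and 9 higher, and of the 112 blocked falls 15 were lower (13.4%) and 7 higher. The pattern was not particular to these classes. Of the 100 enlarged falls, 34 were lower (34%) and 3 higher. Of the 93 enlarged rises, 23 were higher (24.7%) and 12 lower, and of the 23 reduced rises 12 were higher (52.2%) and 2 lower. Gained rises and falls stayed near the background, with 78 higher and 111 lower of 1568 (4.97% and 7.08%) and 87 higher and 66 lower of 1078 (8.07% and 6.12%). The PE response in siNeg cells and this knockdown contrast share the siNeg-PE libraries, and the contrast without PE shares the siNeg ones. The interaction of knockdown with PE was called by 1.5-fold for few members, with 3 higher and 9 lower among the blocked rises (1.52% and 4.57%, backgrounds 1.05% and 1.13%) and 3 higher and 9 lower among the reversed rises (2.42% and 7.26%). Whether a class differs from all genes was not tested.

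**Figure D5:**
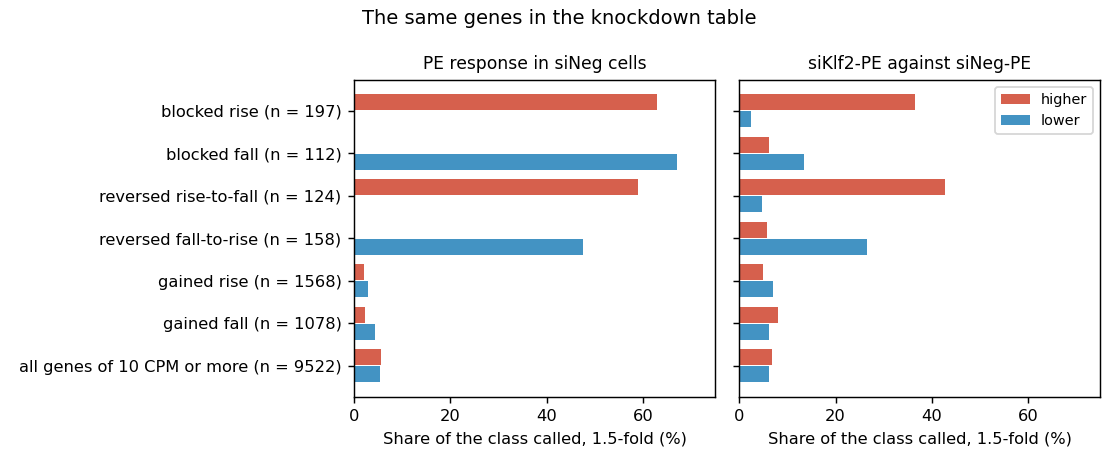
Share of each class called higher or lower by at least 1.5-fold in the knockdown table, for PE in siNeg cells (left) and for siKlf2-PE against siNeg-PE (right), with all genes at the bottom. Blocked and reversed rises were called higher in 62.9% and 58.9% of members on the left and in 36.5% and 42.7% on the right, and the gained classes in 2.1% to 8.07%.

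Interactions of 1.5-fold were spread over the range of counts. They made up 44.2% of the 3357 genes of 10 to 30 CPM, 41.9% of the 3946 genes of 30 to 100 CPM and 40.9% of the 2148 genes of 100 to 1000 CPM. Among the 74 genes of 1000 CPM or more, 24 had a lower response in Ad-Klf2 cells (32.4%, background 19.7%) and 6 a higher one (8.11%, background 22.8%).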

How the data were processed

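The submitters' processing notes name Trim Galore, STAR and featureCounts as tools and mRatBN7.2 as the build; tool versions are not given in the sources used here. Values are unnormalized counts for each Ensembl ID, as deposited by the authors. Even values made up 72.1% to 82.2% of counts of 1 to 20, for which the cause was not tested, and halved counts were an alternative. All 12 overexpression libraries entered 1 edgeR 4.0.16 quasi-likelihood fit in R 4.3.3 with a coefficient per group, TMM factors and filterByExpr (minimum count 10, minimum total 15). Benjamini-Hochberg adjustment of the two-sided p-values ran over all 16153 genes tested. The biological coefficient of variation was 0.132. The 18173 genes tested in the knockdown table were fitted likewise. CPM are scaled with TMM factors.

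Genes, classes and lists were chosen with earlier results of these data known. Gene symbols could not be matched, so the 33 symbol lists were not run. The rule for IDs took the 3 of largest absolute interaction in each class and direction whose sign held with library totals. Of these 18, the pair of highest mean CPM in each sign was followed, a choice made after the values were seen. Alternatives were run with DESeq2 1.42.0 and limma 3.58.1, among others. The procedure was tested on simulated data in which 200 genes were changed in Ad-Klf2-PE alone. Means were otherwise equal across groups, and the spread was the same in every library. Such data cannot show how the scaling behaves when many genes change, as they did here. The peak list was not used here.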

Additional observations from a re-analysis of the deposited data

Results flagged for a closer look

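The response to PE differed between Ad-Klf2 and Ad-GFP cells by the test of the interaction itself for 3110 genes with a higher and 3173 genes with a lower response in Ad-Klf2 cells, among the 9525 genes of 10 CPM or more. It also differed for each ID followed, by -5.02 on the log2 scale for ENSRNOG00000018598, by -4.22 for ENSRNOG00000046468, by 3.40 for ENSRNOG00000019120 and by 5.91 for ENSRNOG00000000463. These IDs were chosen for a large called interaction, so a difference for each was fixed by the choice. Groups of 3 libraries are too small for a search for single outlying libraries.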

How the results depend on the processing

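The interaction kept its direction for all 4 IDs under RLE factors, library totals, no low-count filter, DESeq2, limma voom with quality weights, the replicate block and halved counts. For library totals this was fixed by the rule that chose the IDs. They were also chosen for large interactions, so a change of sign under the other settings was unlikely from the start. Among counts of genes recomputed under an alternative, 308 stayed within 1.5 times the reported count and 46 did not. With library totals alone there were 130 blocked rises, 175 blocked falls, 8 reduced falls, 58 enlarged rises and 159 enlarged falls. With a minimum mean of 1 CPM there were 186 blocked falls, 283 reversed fall-to-rise genes, 35 reduced rises, 13 reduced falls and 156 enlarged falls. With a minimum of 30 CPM, 1426 genes were higher and 1135 lower by 1.5-fold, with 55 blocked falls, 79 reversed fall-to-rise genes, 630 gained falls, 15 reduced rises, 0 reduced falls, 54 enlarged rises and 47 enlarged falls. With a fold of at least 2, 1317 genes were higher and 850 lower, with 66 blocked rises, 22 blocked falls, 30 rise-to-fall and 40 fall-to-rise reversals, 1011 gained rises, 510 gained falls, 6 reduced rises, 1 reduced fall, 26 enlarged rises and 25 enlarged falls. With no minimum fold there were 395 blocked rises, 196 blocked falls, 723 rise-to-fall and 627 fall-to-rise reversals, 150 reduced rises, 59 reduced falls, 586 enlarged rises and 456 enlarged falls. These last 4 settings change the number of genes by their construction; for library totals the cause was not tested.

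Sorted with no minimum fold, 21% of blocked rises and 20.5% of reversed rises were raised, and 23.5% of blocked falls and 22.5% of reversed falls lowered, by PE in siNeg cells. Leaving out genes that reached 10 CPM through Ad-Klf2-PE alone, chosen after seeing the data, gave 2007 genes higher and 1872 lower by 1.5-fold. Requiring a called Klf2 effect with PE, chosen after seeing the data, left 1901 genes lower, 119 blocked rises, 73 blocked falls, 11 reduced rises and 2 reduced falls. Putting the siNeg response in place of that in Ad-GFP, also chosen after seeing the data, gave 13 reduced rises.

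Leaving out 1 library at a time gave 2908 to 3120 genes higher and 2998 to 3248 lower, and by 1.5-fold 2112 to 2208 higher and 1875 to 1950 lower. There were 188 to 212 blocked rises, 111 to 132 blocked falls, 113 to 134 rise-to-fall and 154 to 174 fall-to-rise reversals, 1491 to 1548 gained rises, 1102 to 1160 gained falls, 19 to 23 reduced rises, 83 to 96 enlarged rises and 92 to 113 enlarged falls. Reduced falls ran from 1, without Ad-GFP-PE replicate 3, to 6, without Ad-Klf2-PE replicate 3.

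Replicate numbers did not pair the libraries, since deviations of same-numbered libraries correlated at -0.245 to 0.168 and 4 of 12 libraries correlated best with their own number. With the replicate block 3095 genes were higher and 3160 lower, with 199 blocked rises and 111 blocked falls.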
